A study of Homo sapiens with 8 samples.

Results

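The genes described here encode the nuclear part of the mitochondrial respiratory chain. They were chosen by name: a row of the count table was taken when its symbol held no hyphen and began like the subunit genes of complex I (NDUFA, NDUFB, NDUFC, NDUFS, NDUFV), complex II (SDHA to SDHD), complex III (UQCR), complex IV (COX4 to COX8) or complex V (ATP5). This gave 88 of 28518 rows, of which 38 belonged to complex I, 4 to complex II, 10 to complex III, 17 to complex IV and 19 to complex V. The 8 RNA libraries came from HaCaT, a spontaneously immortalised line of human keratinocytes, with the cells' own CARD14 knocked out in every group. Cells received 9 ug of plasmid encoding CARD14, a self-cleaving peptide and eGFP, had their medium changed after 2 h, and were sorted for GFP 24 h after transfection. The plasmid carried the variant R820W, N737H or I593T of CARD14, described by the series as hypomorphic, or wild-type CARD14 (WT), with 2 libraries per construct titled B and A. The CARD14 in these cells therefore came from a transient plasmid, and no library of untransfected cells was analysed here. The series asked which pathways differ between cells expressing the variants and cells expressing WT CARD14, an adaptor through which keratinocytes activate NF-kB.

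Complex I oxidises NADH and complex II oxidises succinate, and both pass electrons by way of ubiquinone to complex III, from which cytochrome c carries them to complex IV, where oxygen is reduced. Complexes I, III and IV pump protons out of the mitochondrial matrix, and complex V, the ATP synthase, lets them return and makes ATP. Most subunits are encoded in the nucleus and imported, while a small set of core subunits of complexes I, III, IV and V is encoded in mitochondrial DNA; those mitochondrially encoded genes were not analysed here. In cultured keratinocytes such as HaCaT, glycolysis and respiration both supply ATP.

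Promoters of nuclear respiratory chain genes are known for binding sites of NRF1, of the ETS family factor GABP and of YY1, a factor that binds many housekeeping promoters. The RefSeq promoter table (GRCh38.p14) held 65 of the 79 genes that passed the filter on low counts described below. In the 300 bases from 250 before to 50 after the first listed start, on either strand, the NRF1 motif (GCGCA directly followed by TGCGC) occurred in 4 of the 65, or 6.15%, against 2.30% of the 10590 promoters of genes tested and 1.36% of all 27305 promoters. The ETS motif CCGGAAG occurred in 19 of the 65, or 29.2%, against 19.2% of genes tested and 10.7% of all promoters. The YY1 motif AAGATGGCG occurred in 8 of the 65, or 12.3%, against 3.91% and 1.85%. At least 1 of these motifs was present in 28 of the 65, or 43.1%, against 23.8% of genes tested and 13.1% of all promoters. An ETS match and a YY1 match can share the letters AAG. A match describes the sequence and does not show that a factor binds. The promoters below are shown from 200 bases before to 30 bases after the start, 5′ to 3′ on the gene's strand, with matched motifs in capitals in either orientation. ATP5I, at chr4:674247-674476 on the minus strand, is 1 of the 2 genes that passed the test between letters and has an ETS match. ATP5J, at chr21:25735025-25735254 on the minus strand, has a YY1 match followed by an ETS match. SDHD, at chr11:112086673-112086902 on the plus strand, has an NRF1 match followed by an ETS match and was the complex II gene with the highest level.
ATP5I: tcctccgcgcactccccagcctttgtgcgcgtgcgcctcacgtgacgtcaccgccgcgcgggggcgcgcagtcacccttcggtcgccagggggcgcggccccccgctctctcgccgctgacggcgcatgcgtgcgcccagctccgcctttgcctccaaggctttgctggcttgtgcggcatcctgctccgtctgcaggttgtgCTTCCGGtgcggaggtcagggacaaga
ATP5J: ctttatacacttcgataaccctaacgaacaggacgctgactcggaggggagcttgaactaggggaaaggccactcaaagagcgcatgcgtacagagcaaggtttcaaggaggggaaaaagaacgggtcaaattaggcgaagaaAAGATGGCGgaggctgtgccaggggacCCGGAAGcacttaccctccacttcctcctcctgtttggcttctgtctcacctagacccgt
SDHD: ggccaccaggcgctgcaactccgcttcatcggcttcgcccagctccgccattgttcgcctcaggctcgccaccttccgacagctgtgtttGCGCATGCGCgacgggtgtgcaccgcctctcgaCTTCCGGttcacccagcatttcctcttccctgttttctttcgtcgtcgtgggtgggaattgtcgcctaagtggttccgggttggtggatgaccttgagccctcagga

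Total counts were 17892608 to 24629860 per library. After a filter on low counts, 14834 genes were tested, 79 of the 88 respiratory chain genes among them. CARD14, supplied by the plasmid, had 1410 CPM (counts scaled to the normalised library size) in R820W B and 1190 CPM in R820W A, 1005 and 444 CPM in N737H B and A, 1394 and 500 CPM in I593T B and A, and 978 and 1127 CPM in WT B and A. A count per gene cannot tell a variant from WT CARD14. All 10 keratinocyte markers examined were tested, with mean levels of 1209 CPM for KRT14 and 257 CPM for KRT5. Summed over a library, 5 fibroblast markers reached 0.412 to 1.63 CPM, 4 leukocyte markers 0.0989 to 0.436 CPM, 4 melanocyte markers 1.65 to 3.10 CPM and 3 endothelial markers 1.05 to 2.80 CPM, and the defining melanocyte marker TYR was at 0. The series speaks of 2 independent experiments, but no label ties the letters to them, so p-values measure only the spread between these libraries.

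The WT libraries stood apart from the rest, and in opposite directions. Respiratory chain genes held 2.15% of all counts in WT B and 1.42% in WT A, the highest and the lowest share of the 8 libraries, while the 6 variant libraries held 1.63% to 1.92%. WT B was the highest of the 8 libraries for 67 of the 79 genes tested (84.8%), against 20.3% of all genes tested. WT A was the lowest for 47 of the 79 (59.5%), against 18.2% of all genes tested. Both held for 42 genes (53.2%), against 8.35% of all genes tested. Every comparison with WT below rests on these libraries, so log2 fold changes and medians against WT are also given without WT A and without WT B. In bulk libraries, fewer cells of a type and less RNA per cell cannot be told apart.

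**Figure D1:**
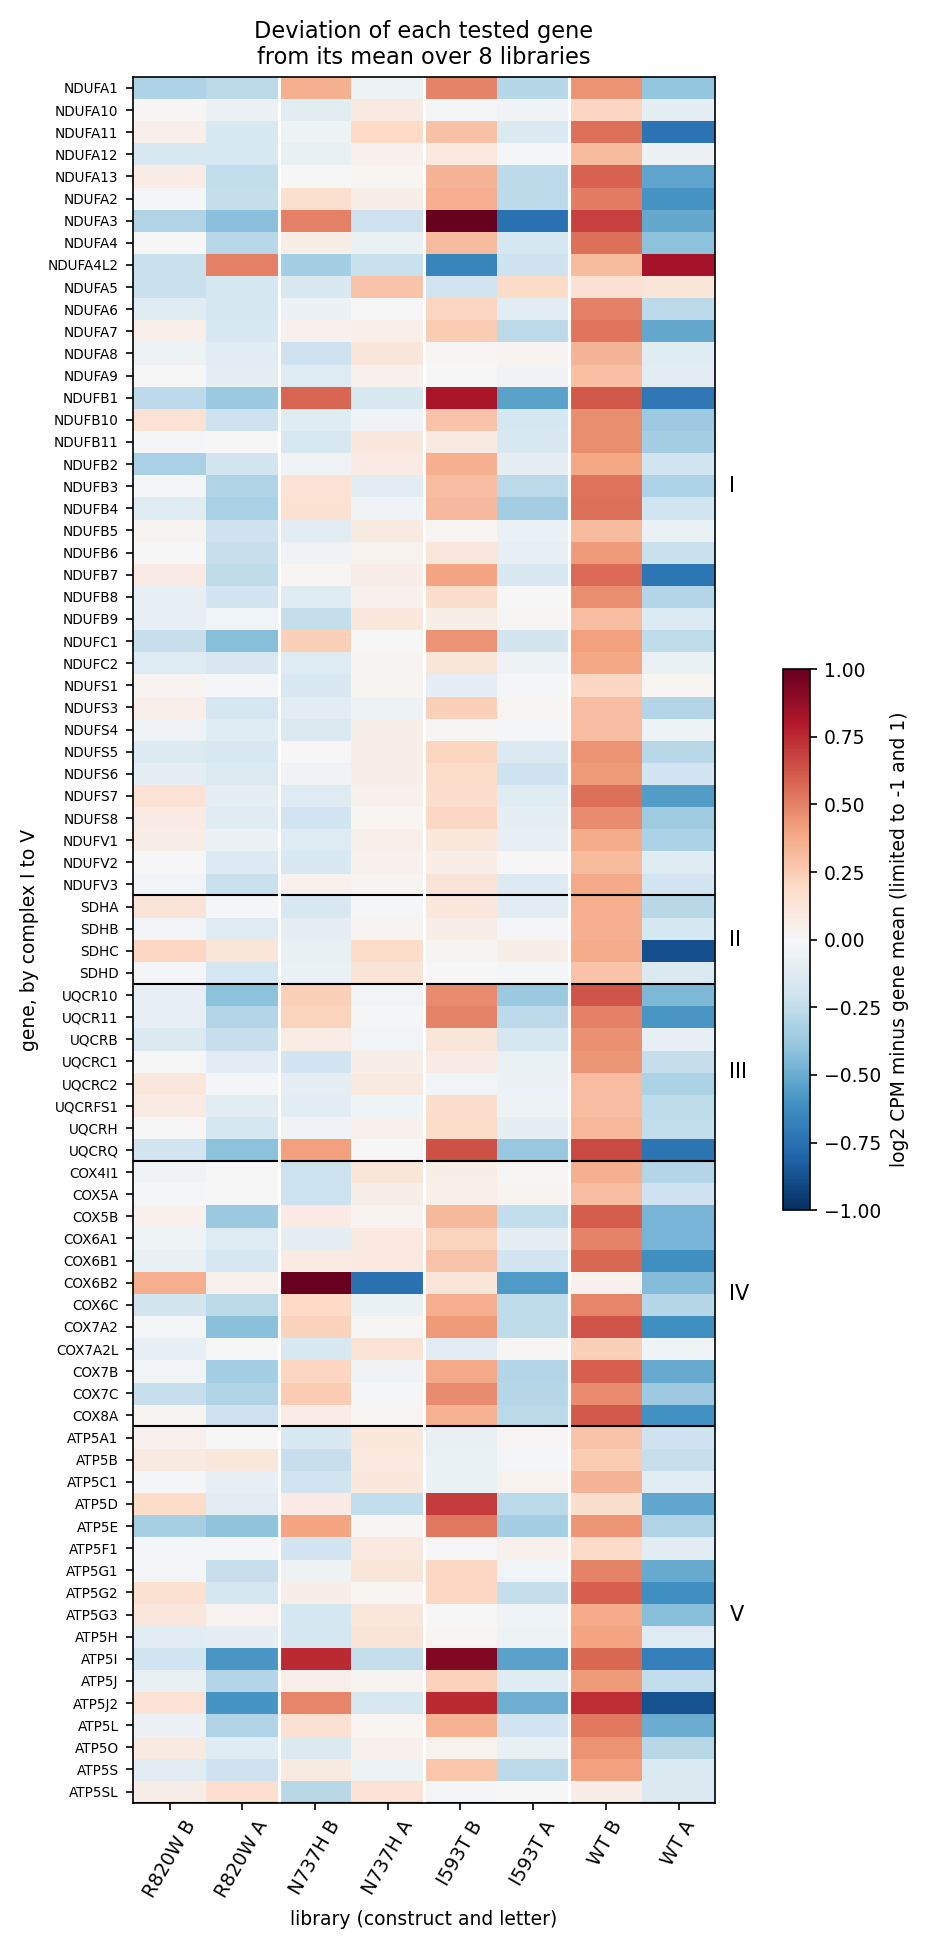
Deviation of log2 CPM from each gene's mean over the 8 libraries, for 78 of the 79 genes tested, in rows by complex I to V, with variants left of WT and B left of A. Red is above the mean and blue below; the WT B column is mostly red and the WT A column mostly blue, and over all 79 genes the median deviations in WT B and WT A were 0.43 and -0.28.

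Summed over each complex, the variant libraries lay between the WT libraries in every complex. The 38 complex I genes summed to 5751 and 5242 CPM in R820W B and A, 5556 and 5970 CPM in N737H B and A, 6528 and 5466 CPM in I593T B and A, and 7735 and 4956 CPM in WT B and A. The 4 complex II genes summed to 1248 and 1141 CPM in R820W B and A, 1125 and 1268 CPM in N737H B and A, 1241 and 1180 CPM in I593T B and A, and 1518 and 988 CPM in WT B and A. In both complexes, and in complexes III, IV and V below, the gap between the WT libraries was wider than the whole range of the 6 variant libraries. The 8 complex III genes tested summed to 1808 and 1598 CPM in R820W B and A, 1882 and 1850 CPM in N737H B and A, 2172 and 1635 CPM in I593T B and A, and 2502 and 1450 CPM in WT B and A. The 12 complex IV genes tested summed to 2482 and 2274 CPM in R820W B and A, 2610 and 2659 CPM in N737H B and A, 3052 and 2328 CPM in I593T B and A, and 3598 and 1953 CPM in WT B and A. The 17 complex V genes tested summed to 6313 and 5924 CPM in R820W B and A, 5836 and 6486 CPM in N737H B and A, 6541 and 5919 CPM in I593T B and A, and 7859 and 5096 CPM in WT B and A. N737H was the only construct in which B was below A in the sums of complexes I, II, IV and V. In complex III N737H B was slightly above N737H A. N737H B also had 21059 genes with a count, against 17836 to 18855 in the other libraries. Over all 79 genes, sums averaged 16890 ± 1006 CPM in R820W, 17621 ± 865 CPM in N737H, 18031 ± 2127 CPM in I593T and 18828 ± 6201 CPM in WT (SD, n = 2 each), so the mean of each variant lay within 1 SD of that of WT. In complex IV the ratio of B to A was 1.09 in R820W, 0.982 in N737H, 1.31 in I593T and 1.84 in WT.

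**Figure D2:**
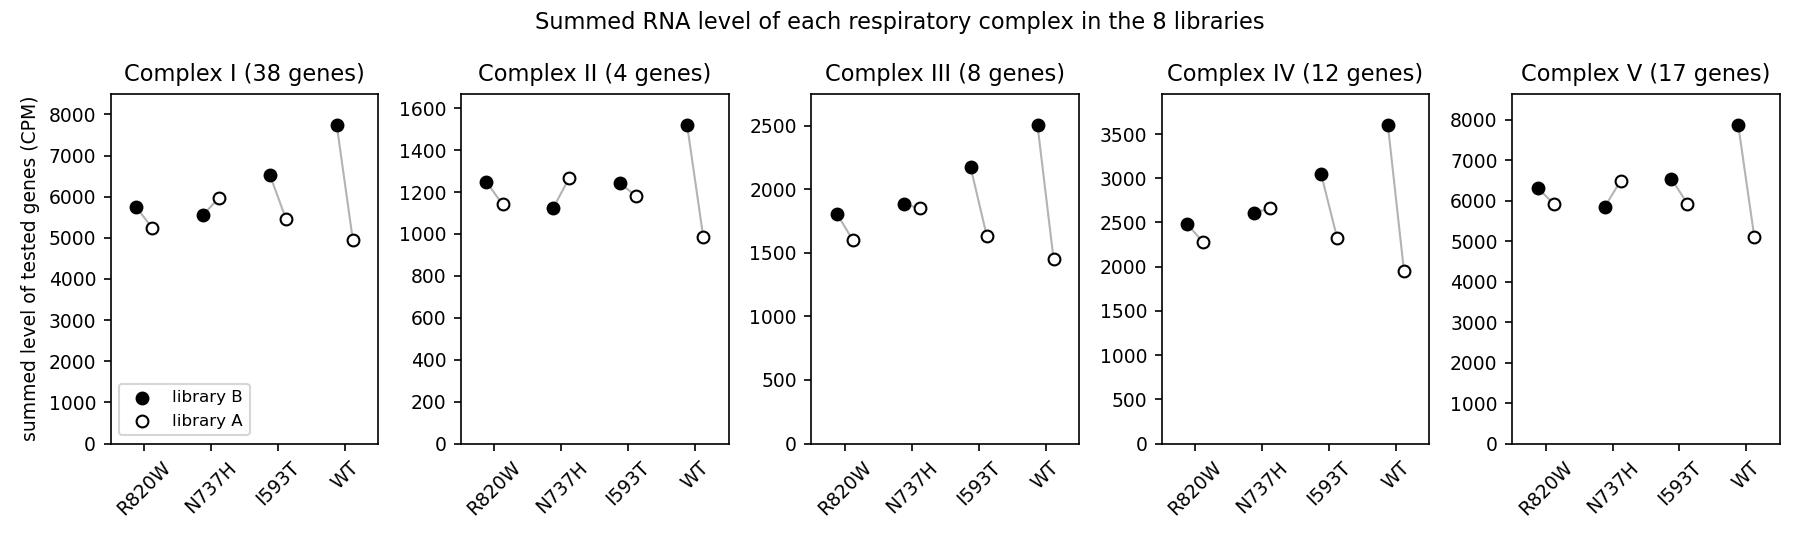
Summed CPM (y axis, from 0) of the genes tested in each complex, for the 3 variants and WT (x axis), with library B filled and library A open, joined by a line. In each of the 5 panels the highest and the lowest point belong to WT, and in complex I they are at 7735 and 4956 CPM.

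Levels of different genes were compared per kilobase of coding sequence, as the mean of the 8 libraries. Untranslated parts of the RNA were left out of the length, although counts per gene may include their reads. Values of genes with a short coding sequence may therefore be too high, and the order need not be that of transcripts. In complex I, NDUFA4 had the highest level, at 1937 CPM per kb; its product is counted here by its name, although it is now regarded as a subunit of complex IV. NDUFC2, an accessory subunit of the membrane arm, followed at 705 CPM per kb, and the median of the 38 genes was 282 CPM per kb. NDUFA4L2, a paralog of NDUFA4 that is known as hypoxia-induced, had 2.14 CPM per kb and was the lowest of complex I. In complex II, SDHD, a membrane anchor, had 832 CPM per kb, SDHC, the other anchor, 396 CPM per kb, SDHB, the iron-sulfur subunit, 384 CPM per kb, and SDHA, the flavoprotein that oxidises succinate, 148 CPM per kb. In complex III, UQCR10 and UQCR11, both small accessory subunits, had the highest levels at 1660 and 748 CPM per kb, and the core protein gene UQCRC2 the lowest of the genes tested at 223 CPM per kb. In complex IV, COX6A1 had 1310 and COX6C 1025 CPM per kb. In complex V, ATP5E, the epsilon subunit of the F1 part, had 1360 CPM per kb, ATP5J2, the f subunit of the membrane part, 1347 CPM per kb and ATP5B, the catalytic beta subunit, 1031 CPM per kb.

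Of the isoform pairs, the widely expressed form had the higher level. COX4I1 averaged 903 CPM per kb, while COX4I2, known from lung, had no count in any library. COX6A1, at 1310 CPM per kb, was well detected, while COX6A2, the heart and muscle form, had no count. COX7A2 averaged 696 CPM per kb, while COX7A1, also a heart and muscle form, had 2 counts over all 8 libraries. COX6B1 averaged 531 CPM per kb and COX6B2, known from testis, 13.7 CPM per kb. COX7B2 and COX8C also had no count. A count of 0 allows up to 0.121 to 0.163 CPM per library (3 counts, counting error only). The other genes that were not tested were UQCRBP1, UQCRHL, ATP5EP2 and ATP5L2, with 4 to 45 counts in all; UQCRHL and the rest are close copies of chain genes, and reads shared with their parent genes cannot be assigned with certainty. The proton-carrying c ring is encoded by 3 genes for the same mature protein, and of these ATP5G3 had 775, ATP5G1 555 and ATP5G2 243 CPM per kb. The names ATP5S and ATP5SL meet the rule, at 28.0 and 46.3 CPM per kb, although their products (DMAC2L and DMAC2) are not subunits of complex V.

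No respiratory chain gene passed the test for a difference between R820W, N737H or I593T cells and WT cells. In edgeR's quasi-likelihood test, 0 of 79 passed an adjusted p of 0.05 in each of the 3 comparisons, and 0 of 79 had an unadjusted p under 0.05. Over all genes tested, 0.00% passed the adjusted threshold in each comparison, and an unadjusted p under 0.05 was reached by 1.04% for R820W, 2.44% for N737H and 1.43% for I593T. DESeq2 and limma voom also gave 0 of 79 in each comparison at the adjusted threshold. Standard errors (SE) were derived from the test, as the absolute log2 fold change divided by the square root of its F statistic. On the log2 scale they ran from 0.15 to 0.59 in R820W against WT, with a median of 0.25. They were close to these in the other comparisons. The test therefore had little precision for differences of about this size. Larger ones could also go uncalled, as UQCRB did in R820W at -0.40 ± 0.20 (SE).

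Most fitted differences from WT were small and negative. The median log2 fold change of the 79 genes was -0.21 in R820W against WT, beside -0.01 for all genes tested, and 72 of 79 were below 0 against 52.0% of all genes. In N737H against WT it was -0.10, beside -0.03 for all genes, with 65 of 79 below 0 against 54.2%. In I593T against WT it was -0.06, beside -0.02 for all genes, with 58 of 79 below 0 against 54.4%. Without WT A the medians were -0.52 in R820W, -0.40 in N737H and -0.37 in I593T, and without WT B they were 0.20, 0.29 and 0.33 in the same order of variants. The direction of every variant's median thus depended on which WT library was kept. The same 2 WT libraries serve all 3 comparisons.

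Within a letter, the difference from WT had opposite signs. Among B libraries the median difference of log2 CPM was -0.48 for R820W minus WT, -0.44 for N737H minus WT and -0.26 for I593T minus WT, and 2, 2 and 9 of the 79 genes were above 0. Among A libraries it was 0.11 for R820W minus WT, 0.30 for N737H minus WT and 0.15 for I593T minus WT, and 62, 77 and 70 genes were above 0. All genes tested had medians of -0.04 to 0.00 in these 6 differences. In summed CPM, R820W was at 0.758 of WT in B and 1.12 of WT in A. N737H was at 0.733 of WT in B and 1.26 of WT in A. I593T was at 0.842 of WT in B and 1.14 of WT in A. The difference between letters was not tested, as each letter has 1 library of each construct.

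**Figure D3:**
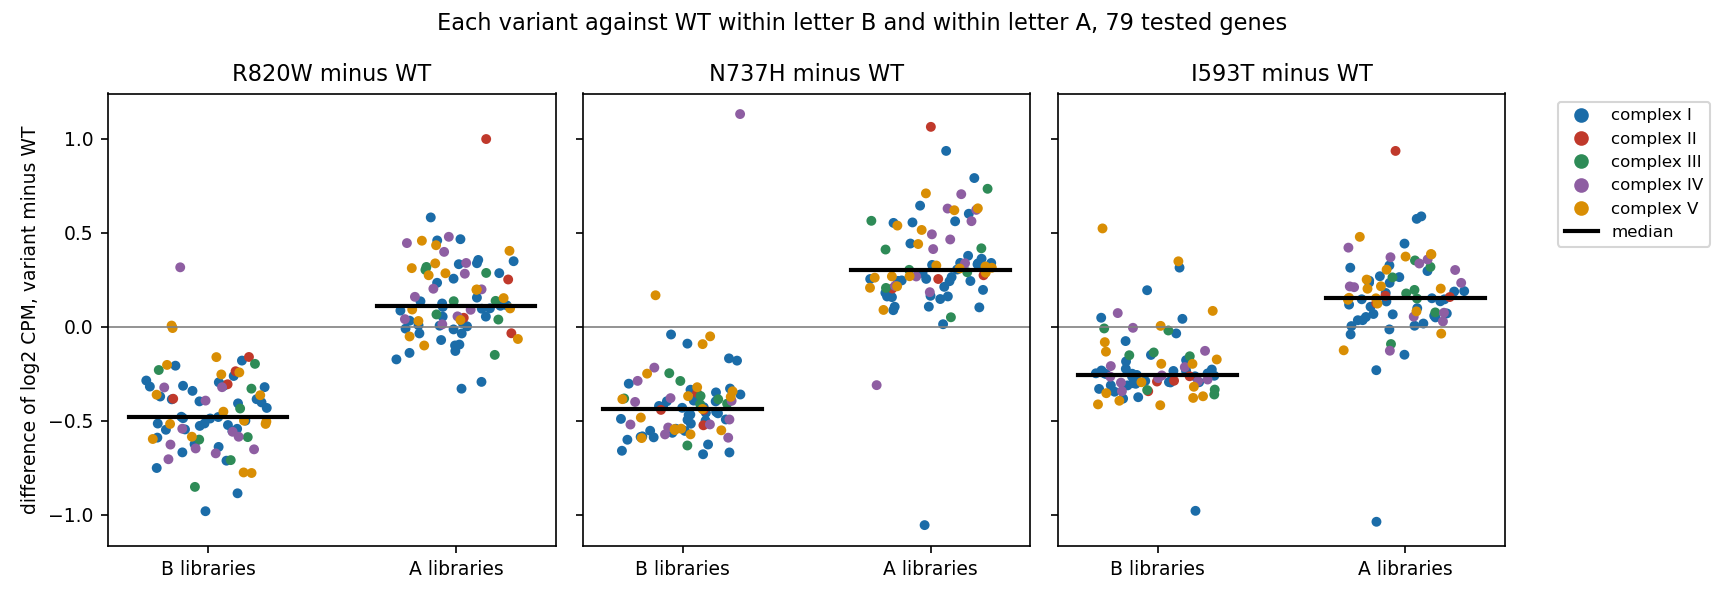
Difference of log2 CPM, variant minus WT (y axis), within the B libraries and within the A libraries (x axis), 1 point per gene tested, coloured by complex, with the median as a black line. The medians are below 0 in B (-0.48, -0.44 and -0.26 for R820W, N737H and I593T) and above 0 in A (0.11, 0.30 and 0.15).

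Few genes had both variant libraries outside both WT libraries. In R820W, 5 of 79 lay below WT in this sense (6.33%), against 12.8% of all genes tested, and 0 lay above, against 12.6%. These were NDUFC2, NDUFA5, NDUFA12, UQCRB and ATP5E, named after their values were seen. UQCRB, a subunit of complex III, had 149 and 141 CPM in R820W B and A, against 227 and 156 CPM in WT B and A, with a log2 fold change of -0.40 ± 0.20 (SE), which was -0.64 without WT A and -0.11 without WT B. NDUFA12, an accessory subunit of complex I, had 126 and 126 CPM in R820W B and A, against 176 and 135 CPM in WT B and A, and a log2 fold change of -0.30 ± 0.17 (SE), which was -0.48 without WT A and -0.10 without WT B. In both genes the gap to WT A was small beside the gap to WT B. NDUFA5 had 96.7 and 100 CPM in R820W B and A, against 125 and 123 CPM in WT B and A. Its log2 fold change was -0.33 ± 0.20 (SE), which was -0.35 without WT A and -0.32 without WT B, so it hardly depended on the WT library. That of NDUFC2 was -0.32 ± 0.18 (SE), which was -0.53 without WT A and -0.082 without WT B. In N737H, 1 gene lay below WT (12.4% of all genes tested) and 0 above (9.92%); in I593T, 2 lay below (11.0%) and 0 above (9.61%). NDUFA4L2 was the gene in N737H and 1 of the 2 in I593T, at 0.394 and 0.436 CPM in N737H B and A and 0.297 and 0.443 CPM in I593T B and A, against 0.676 and 1.01 CPM in WT B and A. At about 0.559 CPM on average, these levels rest on few counts. The log2 fold change of NDUFA4L2 was -0.70 without WT A and -1.25 without WT B in N737H, and -0.85 and -1.41 in the same order in I593T. The other was NDUFS1, the large iron-sulfur subunit of complex I, at 200 and 210 CPM in I593T B and A, against 246 and 216 CPM in WT B and A, with a log2 fold change of -0.17 ± 0.15 (SE), which was -0.27 without WT A and -0.066 without WT B. These counts turned on which WT libraries were used. Against WT B alone, both libraries were lower for 75 of 79 genes in R820W, 75 in N737H and 69 in I593T (94.9%, 94.9% and 87.3%, against 36.9%, 36.5% and 34.6% of all genes tested). Against WT A alone, both were higher for 60, 59 and 68 genes in the same order (75.9%, 74.7% and 86.1%, against 38.2%, 30.8% and 34.3%).

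SDHC did not separate the groups, and its fitted differences from WT were smaller than their standard errors. It had 225 and 212 CPM in R820W B and A, 186 and 222 CPM in N737H B and A, 199 and 203 CPM in I593T B and A, and 252 and 106 CPM in WT B and A. Only WT A was far from the other 7 libraries, and the log2 fold change was 0.29 ± 0.34 (SE) in R820W and 0.19 ± 0.34 in N737H against WT, the most positive and the second most positive among genes with a mean of at least 5 CPM. Without WT A these were -0.20 and -0.31, and without WT B 1.04 and 0.96. The other complex II genes were highest in WT B and did not show that gap: SDHA had 319 and 287 CPM in R820W B and A, 261 and 288 CPM in N737H B and A, 313 and 269 CPM in I593T B and A, and 376 and 241 CPM in WT B and A. SDHB had 314 and 293 CPM in R820W B and A, 301 and 326 CPM in N737H B and A, 335 and 317 CPM in I593T B and A, and 409 and 283 CPM in WT B and A. SDHD, whose promoter is shown above, had 390 and 349 CPM in R820W B and A, 377 and 433 CPM in N737H B and A, 395 and 390 CPM in I593T B and A, and 482 and 358 CPM in WT B and A. In these 3 genes WT B lay above all other libraries, and the groups overlapped for each variant.

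Among ATP synthase genes, ATP5D, the delta subunit of the F1 part, had 61.0 and 49.6 CPM in R820W B and A, 57.0 and 45.1 CPM in N737H B and A, 87.4 and 44.6 CPM in I593T B and A, and 60.7 and 37.5 CPM in WT B and A. I593T B was the high library, and the log2 fold change of I593T against WT was 0.43 ± 0.35 (SE), which was 0.12 without WT A and 0.82 without WT B. ATP5E, the epsilon subunit, had 160 and 152 CPM in R820W B and A, 264 and 203 CPM in N737H B and A, 290 and 159 CPM in I593T B and A, and 274 and 163 CPM in WT B and A. Both R820W libraries were below both WT libraries, R820W B by a wide and R820W A by a narrow margin to the library of its letter, with a log2 fold change of -0.49 ± 0.33 (SE), which was -0.81 without WT A and -0.067 without WT B. In complex I, NDUFA3, an accessory subunit, had 13.3 and 12.2 CPM in R820W B and A, 23.2 and 14.1 CPM in N737H B and A, 32.7 and 9.71 CPM in I593T B and A, and 26.3 and 11.4 CPM in WT B and A. The log2 fold change of R820W against WT was -0.56 ± 0.58 (SE), the most negative in that comparison, and both R820W libraries lay within the range of WT. The fold change was -1.05 without WT A and 0.16 without WT B.

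Among the abundant subunits, WT B was the highest library for all 7 genes given here. NDUFA4 had 462 and 381 CPM in R820W B and A, 479 and 439 CPM in N737H B and A, 574 and 408 CPM in I593T B and A, and 675 and 347 CPM in WT B and A. WT A was the lowest library. UQCRC1, a core protein of complex III, had 346 and 321 CPM in R820W B and A, 302 and 360 CPM in N737H B and A, 365 and 330 CPM in I593T B and A, and 468 and 292 CPM in WT B and A. UQCR10 had 286 and 228 CPM in R820W B and A, 358 and 297 CPM in N737H B and A, 419 and 234 CPM in I593T B and A, and 467 and 222 CPM in WT B and A. Again the WT libraries were at both ends, with the variants between. COX4I1, a subunit that helps regulate complex IV, had 442 and 452 CPM in R820W B and A, 391 and 495 CPM in N737H B and A, 473 and 458 CPM in I593T B and A, and 581 and 371 CPM in WT B and A. COX6A1 had 409 and 386 CPM in R820W B and A, 395 and 450 CPM in N737H B and A, 493 and 394 CPM in I593T B and A, and 595 and 305 CPM in WT B and A. In both complex IV genes N737H was higher in A, the reverse of WT and I593T. ATP5B had 1729 and 1756 CPM in R820W B and A, 1384 and 1742 CPM in N737H B and A, 1550 and 1600 CPM in I593T B and A, and 1933 and 1389 CPM in WT B and A. ATP5A1, the alpha subunit, had 1525 and 1477 CPM in R820W B and A, 1333 and 1597 CPM in N737H B and A, 1413 and 1496 CPM in I593T B and A, and 1804 and 1288 CPM in WT B and A. For ATP5B, N737H B was as low as WT A, and for both genes WT B was the highest library.

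Between the letters, with construct as a term, 2 genes rose in B libraries relative to A libraries, both encoding small subunits of the membrane part of the ATP synthase. ATP5J2, the f subunit, had 362 CPM in R820W B against 218 CPM in R820W A, 461 CPM in N737H B against 293 CPM in N737H A, 550 CPM in I593T B against 234 CPM in I593T A, and 548 CPM in WT B against 179 CPM in WT A. All 4 B libraries were above all 4 A libraries, and the log2 fold change was 1.05 ± 0.17 (SE), with an adjusted p of 0.0278 in edgeR's quasi-likelihood test. ATP5I, the e subunit, had 26.6 CPM in R820W B against 20.4 CPM in R820W A, 51.3 CPM in N737H B against 25.9 CPM in N737H A, 58.1 CPM in I593T B against 21.1 CPM in I593T A, and 45.6 CPM in WT B against 19.0 CPM in WT A. Again all 4 B libraries were above all 4 A libraries, R820W B only just, and the log2 fold change was 1.03 ± 0.18 (SE), with an adjusted p of 0.0345 in the same edgeR test. These 2 of 79 genes are 2.53%, against 1.71% of all genes tested called higher in B and 1.52% called lower, so the share called was near that of all genes. Without R820W B, R820W A, I593T B or I593T A, 0 of 79 were called, with adjusted p of 0.142 to 0.166 for ATP5J2 and 0.077 to 0.162 for ATP5I in edgeR. Without WT B, 5 were called, and both genes were among them.

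ATP5J2 overlaps a read-through gene that also spans PTCD1, which was counted as its own row. That read-through row had 0 and 0 counts in R820W B and A, 189 and 197 counts in N737H B and A, 125 and 0 counts in I593T B and A, and 0 and 128 counts in WT B and A. Its presence did not follow the letter. How reads were shared between the rows is not given, and its part in the ATP5J2 values was not tested.

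**Figure D4:**
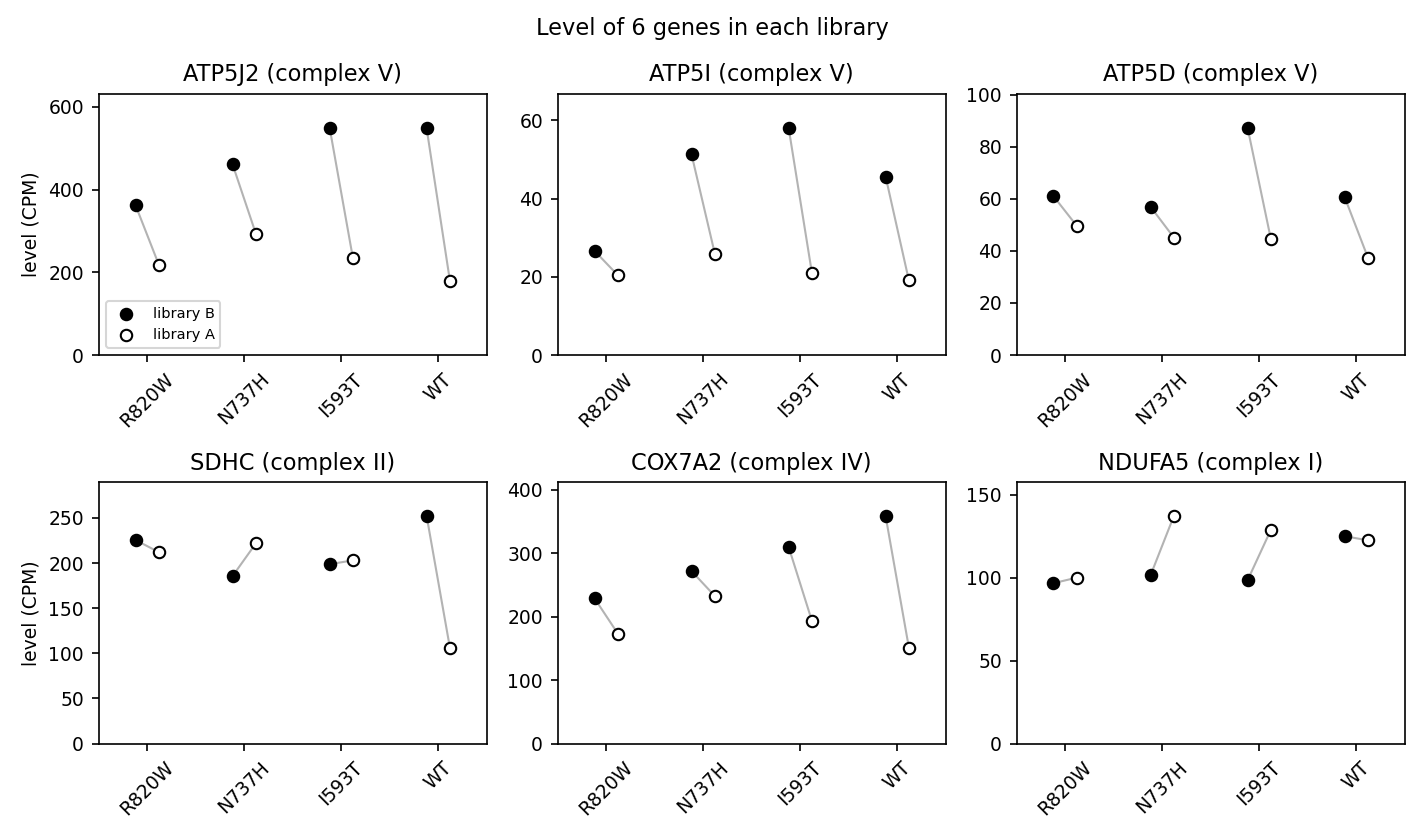
CPM (y axis, from 0) of 6 genes in the 3 variants and WT (x axis), with library B filled and library A open. ATP5J2 and ATP5I are higher in B in all 4 constructs, SDHC is near 200 CPM except in WT, where it is 252 and 106 CPM, and NDUFA5 is lower in B than in A in N737H and I593T.

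Short of the adjusted threshold, most chain genes were somewhat higher in B. An unadjusted p under 0.05 was reached by 32 of 79 genes, all higher in B (40.5%), against 11.7% of all genes tested that were higher at this threshold. B was above A in all 4 constructs for 27 genes (34.2%), against 15.2% of all genes, and below A in all 4 for 1 gene, NDUFA4L2, against 17.8%. The median log2 fold change was 0.26, beside 0.03 for all genes, and 73 of 79 were above 0 against 53.6%. By complex the median was 0.25 in I, 0.18 in II, 0.25 in III, 0.46 in IV and 0.32 in V. The constructs differed in size: the median of log2 CPM in B minus A was 0.12 in R820W, -0.10 in N737H, 0.29 in I593T and 0.68 in WT, while all genes had medians of -0.04 to 0.01. The number of genes above 0 was 66 of 79 in R820W, 28 in N737H, 68 in I593T and 78 in WT. Without WT B the median fell to 0.09, so a large part of it came from the WT pair.

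Other genes with large differences between letters were also small accessory subunits. NDUFA3 had a log2 fold change of 0.95 ± 0.25 (SE), with an adjusted p of 0.087 in edgeR, and missed the threshold. NDUFB1, also an accessory subunit of complex I, had 18.6 and 17.2 CPM in R820W B and A, 33.6 and 20.1 CPM in N737H B and A, 39.5 and 15.4 CPM in I593T B and A, and 34.5 and 13.6 CPM in WT B and A. Its R820W pair was close and the other pairs were apart. COX7A2, the widely expressed form of its subunit, had 229 and 173 CPM in R820W B and A, 272 and 233 CPM in N737H B and A, 310 and 194 CPM in I593T B and A, and 359 and 151 CPM in WT B and A. B was above A in every pair, with a log2 fold change of 0.64 ± 0.17 (SE) and an adjusted p of 0.082 in edgeR. At the other end, NDUFA5, an accessory subunit of complex I, had 96.7 and 100 CPM in R820W B and A, 101 and 137 CPM in N737H B and A, 98.4 and 129 CPM in I593T B and A, and 125 and 123 CPM in WT B and A. Its log2 fold change was -0.21 ± 0.11 (SE), the most negative among genes with a mean of at least 5 CPM, with B below A in 3 of 4 constructs. COX7A2L, known for its part in joining complexes III and IV, had 135 and 142 CPM in R820W B and A, 128 and 157 CPM in N737H B and A, 133 and 144 CPM in I593T B and A, and 168 and 138 CPM in WT B and A. Here WT again ran the other way from the variants, and the log2 fold change was -0.05 ± 0.11 (SE).

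Among chain genes, the difference between letters went with the length of the coding sequence, least so in R820W. Chain genes are short, with a median coding length of 411 nt against 1386 nt for the 12518 genes tested that had a length. In the 20 chain genes of up to 300 nt the median log2 fold change of B against A was 0.51, beside 0.12 for the 257 other genes in that class. In the 26 chain genes of 301 to 450 nt it was 0.28, beside 0.15 for 597 others, and in the 33 longer ones it was 0.15, beside 0.02 for 11585 others. An unadjusted p under 0.05 was reached by 17 of 20, 12 of 26 and 3 of 33 chain genes in the same order, against 77 of 257, 162 of 597 and 2855 of 11585 other genes. In the longest class the share of chain genes, 9.09%, was below the 24.6% of other genes. Across the 79 genes, Pearson's r between log2 coding length and the log2 fold change was -0.52 (Spearman's rho -0.65), against -0.08 across all 12518 genes. With the percentage of G and C in the coding sequence, r was 0.27 across the 79 genes and 0.26 across all 12518 genes. With log2 mean CPM it was -0.14 and -0.19 in the same order. Genes share the libraries and are not independent, so these values are descriptions. Within constructs the shortest class had median B minus A differences of log2 CPM of 0.22 in R820W, 0.26 in N737H, 0.68 in I593T and 1.02 in WT, and the longest class 0.11, -0.20, 0.07 and 0.53. In N737H the medians of short and long chain genes thus had opposite signs. Pearson's r of B minus A with log2 coding length over the 79 genes was -0.15 in R820W, -0.51 in N737H, -0.57 in I593T and -0.41 in WT. Over all 12518 genes it was -0.04, 0.07, -0.09 and -0.19 in the same order. After a correction of all genes for coding length, chosen after the data were seen, the median log2 fold change of B against A was 0.18. In this fit 8 of 79 genes passed the adjusted threshold, both ATP5J2 and ATP5I among them. Calls over all genes rose as well, to the count given in the last section, so more calls were not particular to the chain. Whether length, the percentage of G and C or the level set these differences was not tested.

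**Figure D5:**
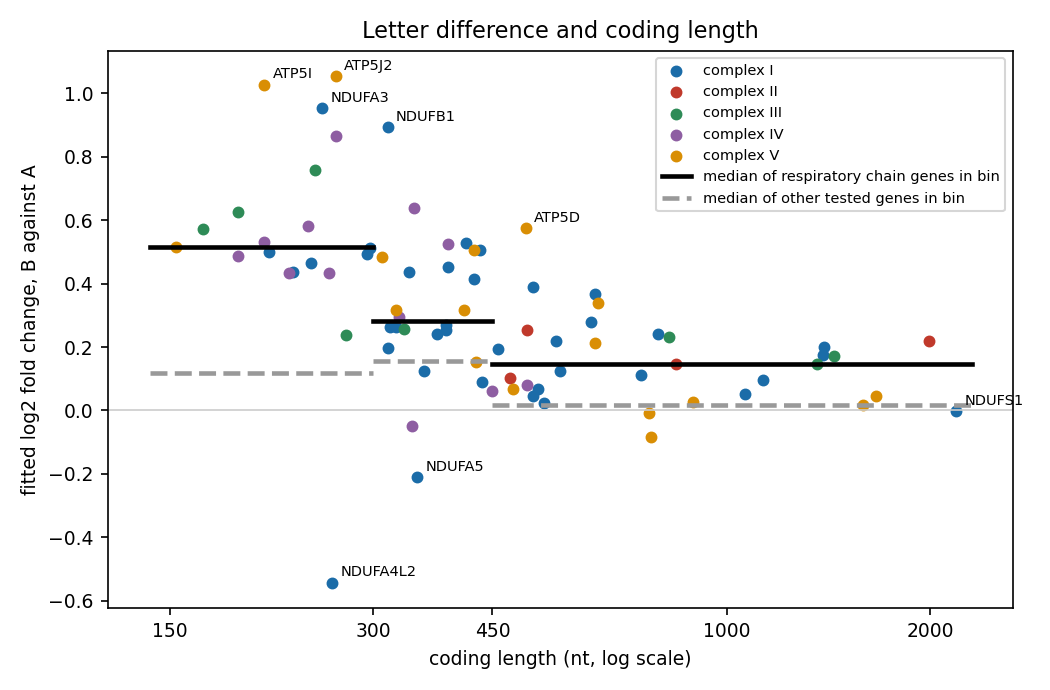
Fitted log2 fold change of B against A (y axis) against coding length in nt (x axis, log scale), 1 point per chain gene, coloured by complex. Black lines are medians of the chain genes in 3 length classes (0.51, 0.28 and 0.15) and grey dashed lines those of other genes tested (0.12, 0.15 and 0.02).

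Length also went with the WT libraries. In the class of up to 300 nt the median deviation of chain genes was 0.53 in WT B and -0.44 in WT A, and in the class above 450 nt it was 0.34 in WT B and -0.20 in WT A. Other genes of the longest class had medians of 0.01 in both WT libraries, while other genes of up to 300 nt had 0.25 in WT B and -0.12 in WT A. After the correction for coding length, the median deviation of the 79 genes was 0.25 in WT B and -0.19 in WT A, still the highest and the lowest of the 8 libraries.

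Other genes of mitochondrial respiration were examined beside the chain. Of 6 subunits and carriers whose names fall outside the rule, 0 were called in any comparison, and their median log2 fold change of B against A was 0.31. One of them, CYC1, the cytochrome c1 subunit of complex III, had 133 and 74.3 CPM in R820W B and A, 221 and 82.3 CPM in N737H B and A, 390 and 86.0 CPM in I593T B and A, and 86.3 and 70.1 CPM in WT B and A. I593T B was the high library, and CYC1 did not follow the complex III genes in WT, where its libraries were close. Its log2 fold change was 1.61 ± 0.70 (SE) in I593T against WT, with an adjusted p of 1.00 in edgeR, 1.46 without WT A and 1.76 without WT B, and 1.19 ± 0.28 (SE) in B against A, with an adjusted p of 0.069. CYCS, cytochrome c itself, had 820 and 949 CPM in R820W B and A, 835 and 1144 CPM in N737H B and A, 877 and 1059 CPM in I593T B and A, and 938 and 1111 CPM in WT B and A. It was lower in B in all 4 constructs, the reverse of most chain genes, at a log2 fold change of -0.30 ± 0.09 (SE) and an adjusted p of 0.104 in edgeR.

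Over all genes tested, 0.00% were called for each variant against WT, while 1.71% were called higher and 1.52% lower in B against A. Of 50 assembly factors, which help build the complexes, 0 were called for any variant against WT, and 1 was called in B against A. This was ACN9 (SDHAF3), a complex II assembly factor, which rose by 0.85 ± 0.14 (SE) on the log2 scale with an adjusted p of 0.0285 in edgeR; it had 47.5 to 62.1 CPM in the 4 B libraries and 22.3 to 34.7 CPM in the 4 A libraries. The median of the list was 0.08. Of 13 regulators of mitochondrial genes tested, such as the mitochondrial DNA packaging factor TFAM and the ETS factor GABPA, 0 were called in any comparison, and the median of B against A was -0.06. TFAM had 134 and 130 CPM in R820W B and A, 150 and 171 CPM in N737H B and A, 141 and 164 CPM in I593T B and A, and 150 and 174 CPM in WT B and A. Of 13 citric acid cycle enzymes, 0 were called in any comparison, with a median of 0.05 for B against A. In B minus A of the WT libraries alone, the medians were 0.19 for assembly factors, -0.15 for regulators and 0.34 for citric acid cycle enzymes, against 0.68 for the chain.

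Gene sets of protein synthesis and degradation also had higher medians in WT B than in WT A. The median of WT B minus WT A in log2 CPM was 0.44 for 76 mitochondrial ribosomal protein genes, 0.59 for 79 cytosolic ribosomal protein genes and 0.33 for 37 proteasome subunit genes. In B against A over all constructs, the medians were 0.11, 0.16 and 0.01 in the same order. Of these 3 lists, 1 gene passed the adjusted threshold between letters, where 3.24% of all genes tested passed in either direction. It was MRPL12, a mitochondrial ribosomal protein, which rose by 0.78 ± 0.15 (SE) on the log2 scale with an adjusted p of 0.0422 in edgeR. For each variant against WT, 0 genes of these lists were called. The medians for R820W against WT were -0.17, -0.14 and -0.12, beside -0.21 for the chain. Without WT A they were -0.33, -0.41 and -0.27, beside -0.52 for the chain, and without WT B 0.072, 0.17 and 0.050, beside 0.20. In R820W, 69 of 76, 74 of 79 and 35 of 37 genes were below 0, beside 72 of 79 of the chain. For N737H the medians were -0.09, -0.04 and -0.14, beside -0.10 for the chain. They were -0.27, -0.28 and -0.27 without WT A, beside -0.40, and 0.13, 0.30 and 0.041 without WT B, beside 0.29. For I593T the medians were -0.05, -0.009 and -0.08, beside -0.06. These were -0.20, -0.26 and -0.22 without WT A, beside -0.37, and 0.20, 0.31 and 0.14 without WT B, beside 0.33. No test of the difference between the chain and these lists was made.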

How the data were processed

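RNA of GFP-sorted cells was measured in 8 libraries. The deposited table gives raw counts, which are whole numbers, by gene symbol, with 17892608 to 24629860 counts per library. Per the labels' protocols, a mirVana kit was used for extraction and a NEBNext low-input kit for the libraries. The submitters' processing notes name hg19, FastQC, MACS2 and DESeq2; the aligner, counting tool, annotation and strand setting are not given. Reads of paralogs, pseudogenes or overlapping genes may have been shared between rows. Of the rows, 5569 had no count, 27 names look like dates and 2 names occur more than once.

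From these counts, edgeR 4.0.16 (R 4.3.3) kept 14834 genes (filterByExpr with the 4 groups), which hold 99.9% of the counts, and normalised them by the trimmed mean of M values. Quasi-likelihood tests were two-sided, with Benjamini-Hochberg adjustment over all genes tested and a threshold of 0.05. Variants were set against WT with group means on all 8 libraries (4 residual degrees of freedom, common biological coefficient of variation 0.262), and B against A with construct as a term (3 residual degrees of freedom, 0.190). Any 2 libraries differed by a chi-square per gene of at least 6.17, above sampling noise, so none is a re-read of another. This value cannot show that libraries came from separate transfections. Each was treated as its own sample. Differences within a letter use log2 CPM (prior count 2). Coding lengths are the longest coding sequence among principal basic transcripts of GENCODE (GRCh38), and promoters and motif counts come from RefSeq; none is a coordinate of the files, which use another build. The fits were tested on simulated data. Alternatives were DESeq2 1.42.0, limma voom 3.58.1, other filters and scaling, the letter as a replicate block, each library left out, and a loess correction for coding length.

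Values in every library were given for the complex II genes, the 2 genes of highest mean CPM in each other complex, the 3 highest and 3 lowest fold changes per comparison at a mean of at least 5 CPM, genes past the threshold, and isoform pairs; related lists name at most 3 genes of smallest p per comparison. The text gives the more telling of these and ranges for others. Items held back for evaluation purposes are left out of the text. The members and lists were chosen with earlier results of these data known. The 4 hyphenated symbols that begin like the rule (antisense or read-through rows) were left out.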

Additional observations from a re-analysis of the deposited data

Results flagged for a closer look

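Among 74 groups of the 4 libraries of 1 letter, 1 library stood far from the other 3 in 6. For groups not picked by their values, chance gives this in about 1 in 20. Many of the genes examined were picked for their fold changes in these same libraries, SDHC, ATP5D, NDUFA5 and COX7A2L among them. That rate therefore does not hold here, and the 6 groups are descriptions. WT was the library that stood apart in 4 of the 6. SDHC, an anchor of complex II, had 106 CPM in WT A, against 203 to 222 CPM in the other A libraries. SDHD, the other anchor, had 482 CPM in WT B, against 377 to 395 CPM in the other B libraries. COX7A2L had 168 CPM in WT B, against 128 to 135 CPM, and NDUFA5 had 125 CPM in WT B, against 96.7 to 101 CPM. The others were variants: ATP5D had 87.4 CPM in I593T B, against 57.0 to 61.0 CPM in the other B libraries, and UQCR10 had 297 CPM in N737H A, against 222 to 234 CPM in the other A libraries.

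The mean of the 3 variants minus WT had opposite signs in the letters. The median over the 79 genes was -0.39 in B and 0.19 in A on the log2 scale. In log2 ratios of summed CPM, complex I was at -0.38 in B and 0.16 in A, complex II at -0.34 and 0.28, complex III at -0.36 and 0.22, complex IV at -0.41 and 0.31, and complex V at -0.34 and 0.26. In each complex all 3 variants lay on the same side, and the 3 share 1 WT library per letter. The difference between letters was not tested.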

How the results depend on the processing

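For each variant against WT, 0 chain genes were called under every alternative run. Their median moved when a WT library was left out: over the fits without 1 library it ran from -0.52 to 0.20 in R820W, -0.40 to 0.29 in N737H and -0.37 to 0.33 in I593T, lowest without WT A and highest without WT B. With the letter as a replicate block the medians were -0.17, -0.07 and -0.05. The main variant tests did not pair libraries by letter, and no label says whether they should be paired. Deviations from group means correlated at 0.024 for WT with N737H and 0.31 to 0.41 in the other pairs. Libraries of the same letter thus shared part of their deviations in most pairs. The main variant tests count that shared part as spread between libraries. The block changed no call of a chain gene. Over all genes, an unadjusted p under 0.05 was reached by 63 to 864 genes in R820W, 115 to 1210 in N737H and 84 to 744 in I593T over all alternatives, and up to 2, 2 and 8 genes passed the adjusted threshold.

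In B against A, chain genes called higher numbered 2 as reported, 9 with no filter on low counts, 20 with DESeq2, 13 with the letter alone and 8 with the correction for coding length, and 0 to 5 when 1 library was left out, with 5 without N737H B or WT B and 0 without either library of R820W or I593T. ATP5J2 and ATP5I were among the genes called in each of these with any call. Calls over all genes numbered 480, and 760, 1321, 1324 and 782 in the same order, and 0 to 1138 when 1 library was left out. The fit corrected for coding length covered the 12518 genes that had a length, and the main fit 14834 genes. NDUFA3 passed with no filter, DESeq2 and the letter alone. The causes were not tested.

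Leaving out 1 library turned the sign of some named fold changes, none of which was called. The ranges in R820W against WT were -0.20 to 1.04 for SDHC, -0.14 to 0.56 for ATP5D, -1.05 to 0.16 for NDUFA3 and -0.96 to 0.30 for ATP5I. In N737H against WT they were -0.28 to 1.03 for ATP5I, -0.31 to 0.96 for SDHC, -0.36 to 0.99 for NDUFB1, -0.44 to 0.030 for NDUFC2 and -0.56 to 0.29 for NDUFS8. In I593T against WT they were -0.14 to 0.83 for ATP5D, -0.62 to 1.06 for ATP5I, -0.65 to 1.01 for NDUFB1, -0.47 to 0.071 for UQCRB and -0.57 to 0.23 for NDUFB4. In B against A they were -0.21 to 0.031 for ATP5SL and -0.19 to 0.034 for COX7A2L. Where 1 library remained in a group, it was assumed to vary like the other groups. With 2 libraries per construct, differences smaller than the standard errors given could not be resolved. Differences of several standard errors could also miss the threshold, as NDUFA3 did in B against A at 0.95 ± 0.25 (SE).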
